A study of Mus musculus with 5 samples.

Results

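Nr0b2 and S1pr2 encode proteins of the response to bile acids, a nuclear repressor and a cell-surface receptor. They were followed in hepatocytes of male wild-type C57BL/6J mice on normal chow during a transition from feeding to prolonged fasting. They make up 2 of the 64 genes on a hybrid-capture panel, and both were chosen by name, whatever their values. The study sequenced 5 libraries of single hepatocytes from liver, 1 for each time point. Mice had been trained for 3 days with 16 h without food and 8 h with food. On the last day their water held 20% sucrose. The fed mice (0 h) were killed 4 h into feeding, at clock hour 13. The fasted mice then lost chow and sucrose for 8, 16, 24 or 30 h, and were killed at clock hours 21, 5, 13 and 19. Only 0 h and 24 h have the clock hour in common, so for the other libraries hours of fasting and clock hour cannot be told apart. The number of mice behind each library is not given in the sources used here. Series of 5 values follow the order 0, 8, 16, 24 and 30 h, and series of 4 values that of the fasted libraries.

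The liver makes bile acids from cholesterol, and it limits that synthesis when bile acids return from the gut. Nr0b2 encodes the small heterodimer partner (SHP), a nuclear receptor without a DNA-binding domain that represses other transcription factors. Its transcription is activated by the bile acid receptor FXR (gene Nr1h4), and the genes for the bile acid hydroxylases CYP7A1 and CYP8B1 are among the known targets of its repression. CYP7A1 is the rate-limiting enzyme of the classic pathway, and CYP8B1 is the sterol 12α-hydroxylase that directs synthesis to cholic acid. S1pr2 encodes sphingosine-1-phosphate receptor 2, a G-protein-coupled receptor of the cell surface that conjugated bile acids can also activate in hepatocytes. It is also present on endothelial, stellate and immune cells.

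Nr0b2 (ENSMUSG00000037583) lies on the plus strand of chromosome 4 of GRCm38, from 133553376 to 133556536. S1pr2 (ENSMUSG00000043895) lies on the minus strand of chromosome 9, from 20962361 to 20976781. No exon of another annotated gene overlaps an exon of either. Cyp7a1 (ENSMUSG00000028240; chromosome 4, 6265612 to 6275633) and Cyp8b1 (ENSMUSG00000050445; chromosome 9, 121914356 to 121916305) both lie on the minus strand.

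The 250 bases before the RefSeq start of Nr0b2, S1pr2 and Cyp8b1 (GRCm38.p6), 3 genes with different time courses, are shown 5′ to 3′. They lie at chr4:133553126-133553375 (plus strand), chr9:20976794-20977043 (minus strand) and chr9:121916306-121916555 (minus strand). Cyp7a1 had no entry among the RefSeq promoters used, so no window of it is shown. Capitals mark matches on either strand to 5 motifs: AGGTCA, the core of nuclear receptor sites, TCAAGG, the core of sites of the orphan receptor LRH-1, the E-box CACGTG, the cAMP response element TGACGTCA, and TATAAA. The motifs were picked with the sequences in view.
Nr0b2: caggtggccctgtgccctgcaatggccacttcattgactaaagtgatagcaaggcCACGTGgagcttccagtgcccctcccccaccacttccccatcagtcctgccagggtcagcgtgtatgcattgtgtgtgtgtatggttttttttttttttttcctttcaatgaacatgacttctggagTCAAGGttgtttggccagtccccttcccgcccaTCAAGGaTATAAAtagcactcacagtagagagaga
S1pr2: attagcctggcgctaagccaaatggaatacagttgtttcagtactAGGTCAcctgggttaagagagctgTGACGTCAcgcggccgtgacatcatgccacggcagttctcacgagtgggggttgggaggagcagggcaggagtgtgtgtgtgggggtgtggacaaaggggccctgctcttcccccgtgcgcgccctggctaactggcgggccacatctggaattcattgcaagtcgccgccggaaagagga
Cyp8b1: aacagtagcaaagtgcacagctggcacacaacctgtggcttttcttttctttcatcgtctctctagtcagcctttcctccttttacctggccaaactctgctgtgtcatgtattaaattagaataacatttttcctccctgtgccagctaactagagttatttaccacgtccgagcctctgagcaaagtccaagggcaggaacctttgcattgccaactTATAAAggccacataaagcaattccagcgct

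The Nr0b2 window held TCAAGG at 68 to 63 and at 35 to 30 bases before the start, CACGTG at 195 to 190 and TATAAA at 28 to 23. The S1pr2 window held AGGTCA at 205 to 200 and TGACGTCA at 181 to 174 bases before the start. That of Cyp8b1 held only TATAAA, at 31 to 26. No match overlapped another. Among 32851 windows of the same length in the RefSeq table, AGGTCA was found in 14.0%, TCAAGG in 12.5%, CACGTG in 6.02%, TGACGTCA in 1.55% and TATAAA in 12.4%. A match describes letters and shows no binding.

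The values are counts of UMIs, the molecular tags that mark single captured RNA molecules. Libraries held 7208 to 12153 barcodes (droplets called as cells) and 3979629 to 11288725 panel UMIs. The 8 h library stood apart, with a median of 219 UMIs per barcode against 651 to 1202.5 in the others. Levels are therefore given as CPM, the UMIs of a gene per 1000000 panel UMIs of the library. Alb, which encodes albumin, the main protein that hepatocytes secrete, took 69.4% to 71.8% of UMIs in each library. All 3 hepatocyte markers on the panel (Alb, Cyp2e1 and Cyp2f2) were found in each library. Of 26 markers of other liver cell types, 6 were on the panel (Cdh5, Mrc1, Cd68, Ptprc, Pdgfra and Pdgfrb). None of the 6 was at 0 in any library, and together they came to 76.2, 220, 34.4, 43.2 and 29.7 CPM, highest at 8 h. Between 0.905% and 1.12% of barcode sequences of a library also occurred in another library. With 1 library per time point no difference has a replicate check and no test was possible. The 95% intervals below cover counting error only, without differences between mice or isolations. UMIs come from the 3′ end of transcripts and each gene has its own capture probes, so levels were compared between libraries and bins and not between genes.

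Nr0b2 was lowest in the fed library and higher in every fasted one. It stood at 374 CPM when fed (361 to 389), then 555 (532 to 578), 863 (840 to 887), 644 (629 to 660) and 789.6 (773 to 806). The order from lowest to highest was 0, 8, 24, 30 and 16 h, and no 2 of the 5 intervals overlapped. The log2 ratios of the fasted libraries to the fed one were 0.57 (0.49 to 0.65), 1.20 (1.14 to 1.27), 0.78 (0.72 to 0.85) and 1.08 (1.02 to 1.14). These are folds of 1.48, 2.31, 1.72 and 2.11. At the matched clock hour, 24 h against 0 h, the level of Nr0b2 was thus higher. From one library to the next, its log2 ratios after the first step were 0.64, -0.42 and 0.29.

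S1pr2 had far fewer UMIs, 313 to 587 per library, and took another course. Its level was 59.9 CPM when fed (54.5 to 65.7), then 78.7 (70.2 to 87.9), 58.7 (52.8 to 65.0), 56.3 (51.8 to 61.0) and 38.1 (34.6 to 41.9). The 8 h library was the highest and the 30 h library the lowest, while 0, 16 and 24 h lay within one another's counting error. The log2 ratios to the fed library were 0.39 (0.18 to 0.60), -0.03 (-0.23 to 0.17), -0.09 (-0.27 to 0.09) and -0.65 (-0.85 to -0.46). Against the 24 h library, S1pr2 at 30 h had a log2 ratio of -0.56 (-0.75 to -0.38).

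Past 2-fold against 0 h, Nr0b2 was higher at 16 h and 30 h, and S1pr2 was past it in no library. Of the 56 panel genes that reached 100 UMIs summed over the pair of libraries compared, 30.4%, 39.3%, 32.1% and 42.9% were past 2-fold in either direction. Higher by over 2-fold, as Nr0b2 was at 16 h and 30 h, were 17.9%, 10.7%, 8.93% and 16.1% of the 56, and at both of these times more genes were past 2-fold in the other direction. Counted per barcode, without a correction for depth, both genes were lower at 8 h than at 0 h, with log2 ratios of -1.11 for Nr0b2 and -1.28 for S1pr2. At 16 h the ratio per barcode was 0.52 for Nr0b2 and -0.72 for S1pr2.

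**Figure D1:**
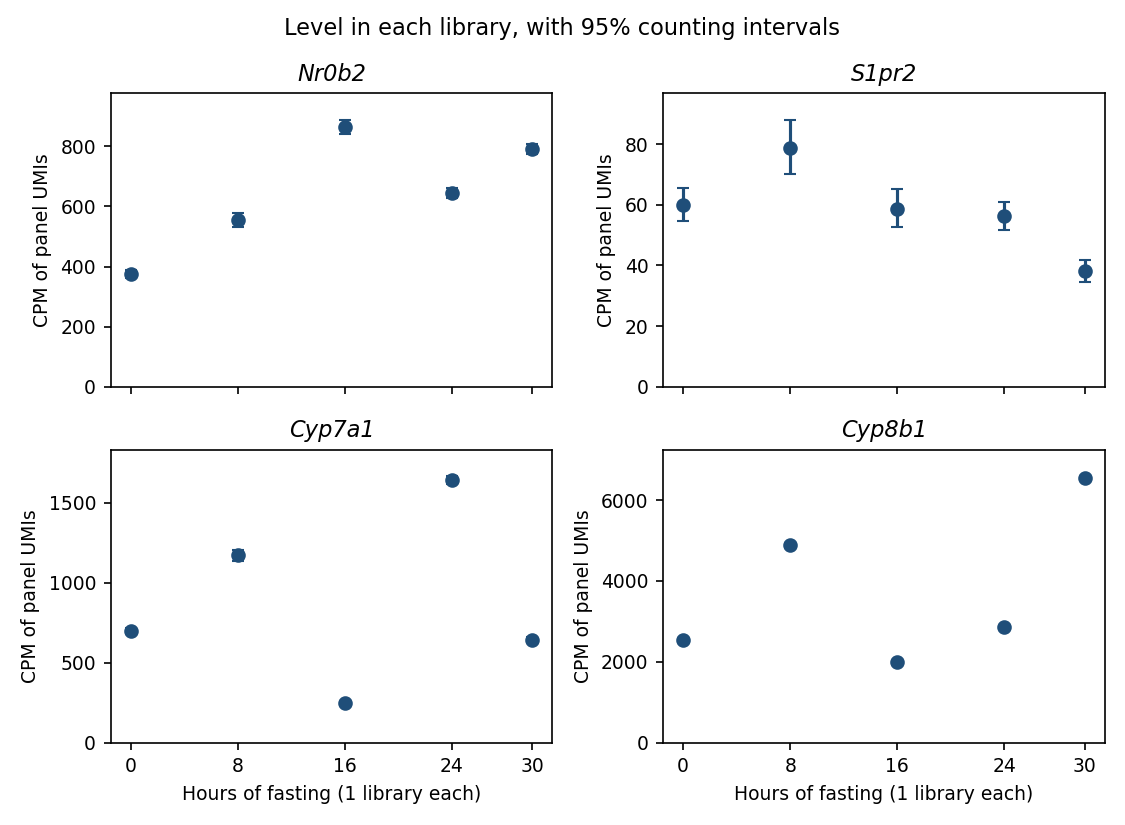
Level of Nr0b2, S1pr2, Cyp7a1 and Cyp8b1 (y axis, CPM of panel UMIs, each panel with its own scale from 0) against hours of fasting (x axis). Each point is 1 library and bars are 95% Poisson intervals, which are smaller than the symbol for some points. Nr0b2 is highest at 16 h (863 CPM), where Cyp7a1 is lowest (247 CPM), and S1pr2 is lowest at 30 h (38.1 CPM).

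The receptor upstream of Nr0b2 differed little between libraries. Nr1h4 (FXR) stood at 1083, 1162, 1203, 1169 and 1016 CPM, log2 ratios to 0 h between -0.09 and 0.15. The Nr0b2 UMIs per Nr1h4 UMI, a ratio that is free of the shared denominator, were 0.346, 0.477, 0.718, 0.551 and 0.778. In this ratio the 30 h library was above the 16 h library, the reverse of their order in CPM. For S1pr2 the same ratio was 0.0553, 0.0677, 0.0488, 0.0481 and 0.0375. Rxra, which encodes the partner with which FXR binds DNA, had log2 ratios to 0 h between -0.16 and 0.30. Fgf15, the gut hormone gene that FXR controls in the ileum, was at 0 UMIs throughout, with an upper Poisson limit of at most 0.927 CPM (8 h).

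Of a list of 44 bile acid genes, the panel held 15: 11 of synthesis, 4 of sensing and control (Nr1h4, Nr0b2, Fgf15 and S1pr2) and 0 of transport. At 8 h, 2 of the 14 with enough UMIs were over 2-fold higher than at 0 h (Cyp46a1 and Hsd3b7) and 0 were over 2-fold lower. At 16 h, 2 were higher (Hsd3b7 and Nr0b2) and 1 lower (Cyp7a1). The 24 h library had 1 higher (Cyp7a1) and 0 lower. At 30 h there were 2 higher (Cyp8b1 and Nr0b2) and 1 lower (Cyp2c70). Hsd3b7, which encodes the enzyme that follows CYP7A1 in the pathway, had log2 ratios of 1.43 at 8 h and 1.79 at 16 h. Exons of Gm49388 on the same strand overlap those of Hsd3b7, so that its UMIs are uncertain. Cyp46a1, a cholesterol 24-hydroxylase gene, had a log2 ratio of 1.04 at 8 h. For Cyp2c70, whose product makes the muricholic acids of mice, the log2 ratio was -1.93 at 30 h. The genes past 2-fold in either direction were 14.3%, 21.4%, 7.14% and 21.4% of the 14, shares below the 30.4%, 39.3%, 32.1% and 42.9% of the whole panel. The median log2 ratio of the 14 genes was 0.48, 0.05, 0.11 and 0.06. Over all 56 panel genes it was 0.05, -0.15, -0.12 and -0.07.

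The next comparison set both genes beside Cyp7a1 and Cyp8b1 in the same libraries. Cyp7a1 stood at 698, 1173, 247, 1642 and 645 CPM. The library with the most Nr0b2 in CPM (16 h) was thus the one with the least Cyp7a1. Cyp8b1 was also lowest there, with 2543, 4878, 1994, 2863 and 6542 CPM. Between consecutive libraries, Nr0b2 and Cyp7a1 moved in opposite directions in CPM in 3 of 4 steps, the exception being 0 h to 8 h, where both were higher. Among 50 other panel genes (each with 100 UMIs or more per library), 17 (34%) were opposite to Cyp7a1 at least as often. Nr0b2 and Cyp8b1 moved in opposite directions in 2 of 4 steps, as often as or less often than 32 of the 50 other genes (64%). At 30 h, Nr0b2 and Cyp8b1 were both over 2-fold above their fed levels.

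S1pr2 moved in the direction of Cyp7a1 in 3 of 4 steps, all but 16 h to 24 h. Over that step its own log2 ratio was -0.06 (-0.25 to 0.13), within counting error. S1pr2 was thus opposite to Cyp7a1 in 1 of 4 steps, and 46 of the 50 other genes (92%) were opposite at least as often. Against Cyp8b1 it was opposite in 2 of 4, as often as or less often than 32 of the 50 (64%). A count of 5 libraries is too small for a correlation and none is given.

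Among the time courses most like that of Nr0b2, of 51 genes compared, were those of G6pc and Cyp2e1. Likeness is the root-mean-square difference of log2 CPM over the 5 libraries after each gene's mean is subtracted, and it came to 0.31 and 0.36 against a median of 0.59. G6pc codes for the enzyme that releases free glucose in the last step of gluconeogenesis. The genes nearest to S1pr2 were Scd1 (0.27), Gulo (0.27) and Nr1h4 (0.28), against a median of 0.57. A gene with no change at all would be at 0.33 from S1pr2 and at 0.43 from Nr0b2. The values of these neighbours of S1pr2, and that of Cyp2e1 for Nr0b2, are thus little better than a flat line. Cyp2e1 stood at 11020, 21897, 20241, 30034 and 32950 CPM. It moved in the direction of Nr0b2 over the first and last steps only, and in the opposite direction over those between.

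Position along the liver lobule was then read from 2 zone markers. In each library, barcodes were ranked by the ratio of Cyp2e1 UMIs, a pericentral gene, to Cyp2f2 UMIs, a periportal gene. They were divided into 5 equal bins, from bin 1 (periportal) to bin 5 (pericentral). Bin 5 was shallower than bin 1 in each library, with a median of 603 against 1223.5 UMIs at 0 h and 253 against 586 at 8 h. Alb took 72.6% of UMIs in bin 1 and 53.2% in bin 5 at 0 h, with like gaps in the fasted libraries, so all other genes gain in CPM in bin 5. Of the panel genes outside Alb, Cyp2e1 and Cyp2f2, 43 of 49 were higher in bin 5 than in bin 1 at 0 h in CPM, and 14 of 49 once Alb was left out of the denominator. Without Alb, the ranking gene Cyp2e1 in turn took 15.3% to 34.7% of UMIs in bin 5 and 0.155% to 1.99% in bin 1, which lowers other genes in bin 5. The zone values are therefore given with Alb, without it, and without Alb, Cyp2e1 and Cyp2f2 (the last added after the data were seen), and beside the median panel gene.

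Nr0b2 was evenly spread at 0 h apart from a higher value in bin 5, at 366, 362, 351, 337 and 504 CPM in bins 1 to 5. At 8 h it went down from bin to bin, at 694, 582, 495, 427 and 371 CPM. Median depth in these bins was 586, 333, 118.5, 116 and 253 UMIs, so they differed in depth as well as in rank. The 16 h profile again had its peak in bin 5, at 807, 817, 774, 855 and 1190 CPM. At 24 h the bins were close to one another, at 659, 673, 633, 603 and 626 CPM, and at 30 h they stood at 837, 792, 816, 751 and 711 CPM. With Alb left out, Nr0b2 was lower in bin 5 than in bin 1 in each library: 1078 against 1334 CPM when fed, then 932 against 3127, 2412 against 3315, 1352 against 2982 and 1420 against 3330.

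The log2 ratio of bin 5 over bin 1 for Nr0b2 in CPM was 0.46 when fed (0.29 to 0.63), then -0.90 (-1.10 to -0.71), 0.56 (0.44 to 0.68), -0.07 (-0.19 to 0.04) and -0.24 (-0.34 to -0.13). Without Alb it was -0.31, -1.75, -0.46, -1.14 and -1.23, and without Alb and the 2 ranking genes -0.16 (-0.33 to 0.009), -1.62, -0.21, -0.79 and -0.74. The sign at 0 h and 16 h thus depended on the denominator, and at 8 h and 30 h it did not. The ratio of Nr0b2 minus that of the median panel gene was -0.20, -1.57, -0.33, -0.88 and -0.79. From the highest pericentral ratio it ranked at 34 of 49 genes, 48 of 49, 35 of 48, 43 of 48 and 43 of 49. Nr0b2 was past 2-fold between the outer bins in no library in CPM. Among the panel genes, 20.4%, 28.6%, 37.5%, 31.2% and 24.5% were past it. All of these were higher in bin 5 except 1 gene each at 8 h, 16 h and 24 h and 2 at 30 h.

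**Figure D2:**
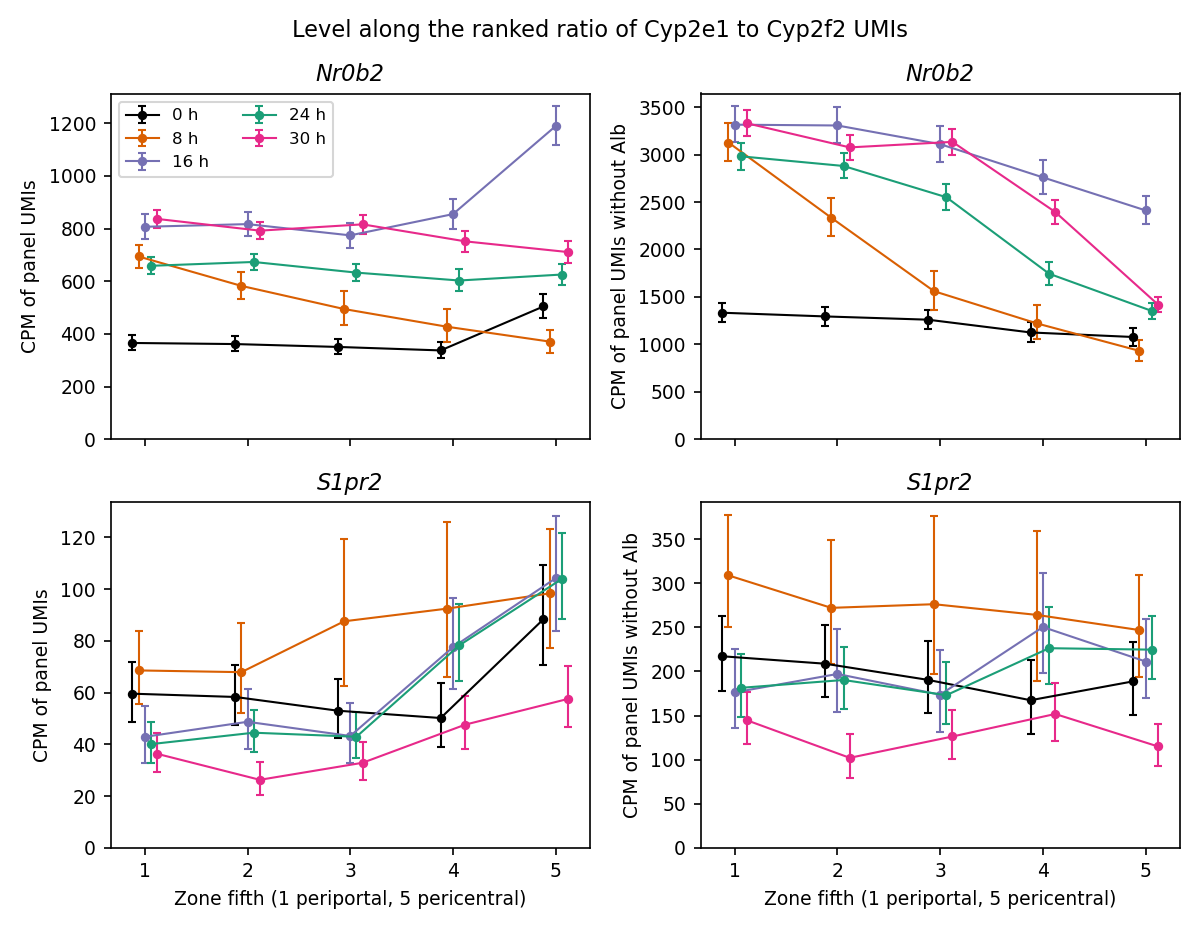
Level of Nr0b2 (top) and S1pr2 (bottom) in the 5 zone bins of each library, from periportal (1) to pericentral (5), as CPM of all panel UMIs (left) and of panel UMIs without Alb (right). Points are 1 library each in the colour of its fasting time, joined by lines, with 95% Poisson intervals. Without Alb, the Nr0b2 profile goes down towards bin 5 most steeply at 8 h (3127 to 932 CPM), while the S1pr2 intervals overlap between bins 1 and 5 in each library.

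The change of Nr0b2 with fasting also differed between the outer bins. Bins were ranked within each library, so the same bin number need not mark the same position in each of them. The level of Cyp2f2 in bin 5 was 9324 CPM at 0 h and 2028 at 8 h. That of Cyp2e1 in bin 1 was 425 CPM at 0 h and 4406 at 24 h. In bin 1, the log2 ratios of Nr0b2 to the fed library were 0.92 (0.78 to 1.07), 1.14 (1.003 to 1.28), 0.85 (0.72 to 0.98) and 1.19 (1.07 to 1.32). In bin 5 they were -0.44 (-0.66 to -0.23), 1.24 (1.08 to 1.40), 0.31 (0.15 to 0.47) and 0.50 (0.34 to 0.65). The pericentral minus the periportal ratio was -1.37 (-1.62 to -1.11), 0.10 (-0.11 to 0.30), -0.54 (-0.74 to -0.33) and -0.70 (-0.90 to -0.50). How far bin 5 at 8 h lay below the fed library, and whether the interval included 0, depended on the denominator. At 16 h Nr0b2 was higher than at 0 h by a like amount in all 5 bins, with log2 ratios from 1.14 to 1.34. Without Alb, the differences between the outer bins were -1.44, -0.15, -0.83 and -0.92. In bin 5 at 8 h the ratio to the fed library was -0.21 without Alb (-0.43 to 0.004), an interval that includes 0, and 1.23 in bin 1. In UMIs per barcode both bins were lower at 8 h than fed, by log2 ratios of -0.18 in bin 1 and -1.54 in bin 5. The difference between the bins at 8 h was -1.46 without Alb and the ranking genes and -1.36 per barcode. With single libraries these differences could not be tested.

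S1pr2 had 63 to 158 UMIs in each outer bin. In CPM it was higher in bin 5 than in bin 1 in each library, at 88.3 against 59.6 when fed, then 98.3 against 68.5, 104 against 42.9, 104 against 40.1 and 57.6 against 36.3. The log2 ratios were 0.57 (0.14 to 0.99), 0.52 (0.06 to 0.97), 1.28 (0.80 to 1.77), 1.38 (1.01 to 1.75) and 0.66 (0.24 to 1.09). They were past 2-fold at 16 h and 24 h, where 37.5% and 31.2% of panel genes were. Without Alb they came to -0.20, -0.32, 0.26, 0.31 and -0.33, and every one of these 5 intervals included 0. Without Alb and the 2 ranking genes they came to -0.06 (-0.48 to 0.37), -0.19 (-0.65 to 0.26), 0.51 (0.03 to 1.002), 0.66 (0.30 to 1.04) and 0.16 (-0.27 to 0.58). Against the median panel gene S1pr2 differed by -0.10, -0.15, 0.39, 0.57 and 0.11. The interval of S1pr2 included the panel median at 0, 8, 16 and 30 h and lay above it at 24 h, where that median was 0.81. In bin 1, the log2 ratios of S1pr2 to the fed library at 16 h, 24 h and 30 h were -0.47 (-0.95 to -0.01), -0.57 (-0.98 to -0.17) and -0.71 (-1.12 to -0.30). Without Alb they were -0.30 (-0.77 to 0.16), -0.26 (-0.66 to 0.14) and -0.59 (-0.999 to -0.18), so only that at 30 h was beyond counting error with both denominators. In bin 5 the ratios in CPM were 0.24 (-0.21 to 0.68), 0.23 (-0.15 to 0.63) and -0.62 (-1.06 to -0.18). That at 30 h was -0.72 without Alb, and -0.36 without Alb and the 2 ranking genes (-0.80 to 0.08). The lower level at 30 h was thus not limited to bin 1, and bin 5 minus bin 1 was 0.10 in CPM (-0.48 to 0.67).

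Cyp7a1 and Cyp8b1 lay otherwise along the same axis. The log2 ratio of bin 5 over bin 1 for Cyp7a1 was 4.78, 4.55, 6.08, 4.21 and 5.34. Among the panel genes ranked, which leave out Alb, Cyp2e1 and Cyp2f2, it was the highest in all 5 libraries. For Cyp8b1 it was 0.76, 1.21, 2.08, 1.70 and 1.23. Nr1h4 stayed near the median panel gene, with 0.68, 0.64, 0.84, 0.83 and 0.67. In each library Nr0b2 thus had a lower pericentral ratio than Nr1h4, Cyp8b1 and Cyp7a1.

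**Figure D3:**
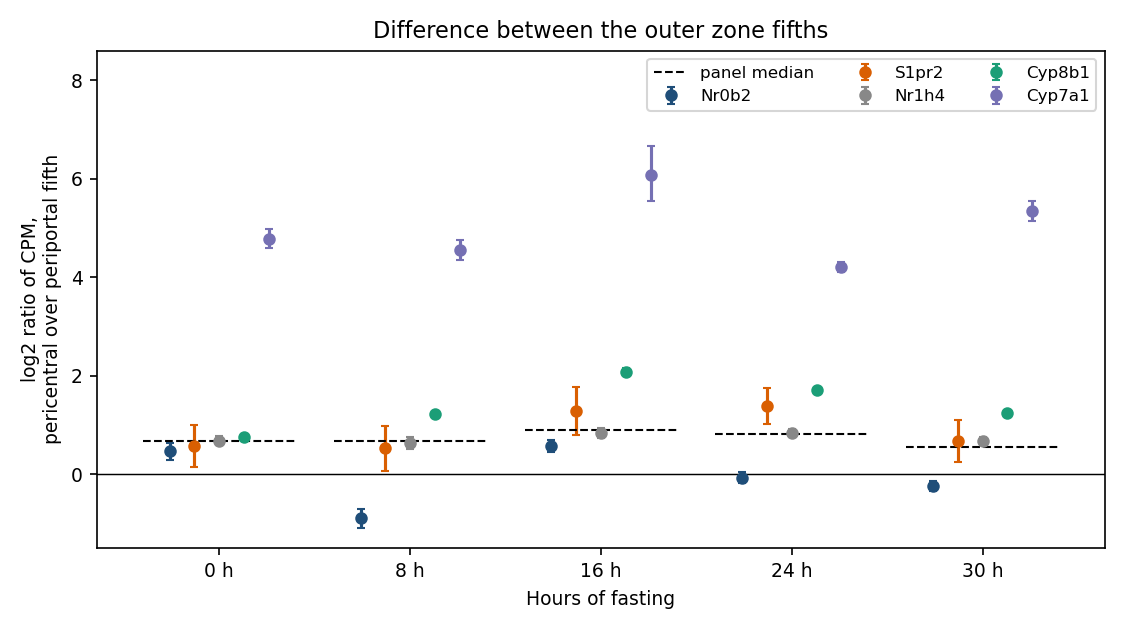
Log2 ratio of CPM in the most pericentral over the most periportal bin (y axis) for 5 genes in each library (x axis, hours of fasting), with 95% intervals from counting error. Dashed lines mark the median of 48 or 49 panel genes. Nr0b2 lies below the median in all 5 libraries and is lowest at 8 h (-0.90), and Cyp7a1 lies between 4.21 and 6.08.

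Over the 5 bins of the 5 libraries taken as 25 points, the genes nearest to Nr0b2 included Elovl2 (root-mean-square log2 difference 0.42) and G6pc (0.46), of 48 genes with a median of 0.85. Elovl2 encodes an elongase of long polyunsaturated fatty acids. The gene farthest from Nr0b2 was Cyp7a1 (2.43). Those nearest to S1pr2 were Scd1 (0.33), Nr1h4 (0.35) and Ywhaz (0.35), against a median of 0.70. A gene with no change at all would be at 0.48 from Nr0b2 and at 0.54 from S1pr2. The values of the neighbours of Nr0b2 are thus little better than a flat line.

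In single barcodes both genes were sparse. A Nr0b2 UMI was found in 29.1%, 14.3%, 39.4%, 46.1% and 51.1% of barcodes, shares that carry the depth of each library. With random thinning of all barcodes to 200 UMIs, the shares were 7.27% (6.68% to 7.89%), 9.71% (8.99% to 10.5%), 15.7% (14.97% to 16.5%), 11.0% (10.3% to 11.7%) and 13.8% (13.2% to 14.5%), ranked as in CPM. Thinning left out 52, 5807, 522, 4 and 26 barcodes with fewer UMIs. Thinned Nr0b2 counts had a variance between 1.02 and 1.13 times their mean, close to that of Nr1h4 (1.01 to 1.08) and below that of Cyp7a1 (1.57 to 2.07). The highest count in 1 barcode was 12 UMIs, at 30 h. For S1pr2 the share was 5.60%, 2.44%, 3.58%, 6.37% and 4.05% before thinning, and 1.05%, 1.39%, 1.30%, 1.13% and 0.705% after it.

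S1pr2 was also measured where hepatocyte RNA was mixed with that of other cells. Barcodes with at least 3 UMIs of the 6 other-cell genes numbered 36, 105, 4, 17 and 18. At 0 h they held 8 S1pr2 UMIs, or 425 CPM (184 to 838), against 58.7 CPM (53.2 to 64.6) in the 6915 barcodes without any such UMI. At 8 h they held 6, or 503 CPM (185 to 1095), against 76.9 CPM (68.4 to 86.2) in 11705 barcodes. The other 3 libraries had 3 S1pr2 UMIs in such barcodes together. Of the 2143 S1pr2 UMIs in all, 2049 lay in barcodes with no UMI of these 6 genes, and the log2 ratio of 8 h to 0 h in those barcodes alone was 0.39. Such barcodes can still hold RNA of other cells, since the 8 h library had only 877 UMIs of the 6 genes in 12153 barcodes. The source of the S1pr2 UMIs was not tested. Nr0b2 in the mixed barcodes of all libraries stood at 484 CPM (319 to 704), against 658 CPM (650 to 667) in barcodes without other-cell UMIs. The libraries enter these sums in unlike proportions. Within libraries it was 159 against 374 CPM at 0 h, 671 against 552 at 8 h, 570 against 643 at 24 h and 751 against 786 at 30 h. At 16 h the mixed barcodes held 0 Nr0b2 UMIs. In each library the difference was within the counting error of the mixed barcodes. A UMI of Nr0b2 was found in 11.1% of the 180 mixed barcodes, with a median depth of 141.5 UMIs, against 35.1% of the 45982 others, with a median of 749. As the mixed barcodes had 59.7% Alb, they held hepatocyte RNA and set no background.

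Whether single barcodes with Nr0b2 had less Cyp7a1 was examined at a depth of 200 UMIs. The Cyp7a1 UMIs of barcodes with a Nr0b2 UMI were set against the number expected from barcodes of the same zone bin without one. At 0 h, 519 barcodes with Nr0b2 held 134 Cyp7a1 UMIs against 128 expected (log2 0.07, -0.19 to 0.31). At 8 h, 615 barcodes held 90 against 119 (-0.40, -0.72 to -0.10), and at 16 h 1405 barcodes held 109 against 119 (-0.13, -0.42 to 0.14). At 24 h, 939 barcodes held 425 against 368 (0.21, 0.07 to 0.35), and at 30 h 1392 barcodes held 187 against 222 (-0.25, -0.46 to -0.04). These intervals cover the Poisson error of the observed UMIs alone. They are too narrow, since the variance of Cyp7a1 was 1.57 to 2.07 times its mean and the expected number has its own error, so no direction is read from the values at 24 h and 30 h. Thinned to 500 UMIs, the values were 0.07, -0.46, 0.10, 0.03 and -0.08, and only that at 8 h had an interval without 0. The median over the panel's genes of the same measure lay between 0.01 and 0.08, and from the highest value Cyp7a1 ranked at 21 of 48 genes, 46 of 48, 50 of 50, 8 of 48 and 49 of 49. At 8 h and 200 UMIs, bin 1 alone gave -0.63 (-2.31 to 0.67) and bin 5 alone -0.32 (-0.72 to 0.06). Both intervals included 0. Position within a bin was not taken into account, and the variance of Cyp7a1 at 8 h was 1.78 times its mean. No direction is therefore read from the value at 8 h either.

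For Cyp8b1 the log2 of observed over expected UMIs in barcodes with Nr0b2 lay between -0.12 (8 h) and 0.02 (16 h), and all 5 intervals included 0. The narrowest was that at 30 h, where 1883 UMIs were found against 1924 expected (-0.03, -0.10 to 0.03). With zone ignored, Cyp7a1 in barcodes with Nr0b2 was at 0.40, -0.82, 0.24, 0.09 and -0.36.

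Barcodes with a S1pr2 UMI were few, 71 to 116 per library at this depth. Within zone bins, they held 17 Cyp7a1 UMIs against 16.6 expected when fed, then 20 against 26.5, 20 against 12.2, 64 against 58.2 and 23 against 14.7, and each log2 interval included 0. At 500 UMIs the value at 16 h was 0.85 (0.42 to 1.24), from 52 UMIs against 28.9, and the others lay between -0.24 and 0.08. For Cyp8b1 at 200 UMIs the values were between 0.06 and 0.30, with an interval above 0 only at 30 h (0.04 to 0.55). At 500 UMIs they were -0.21, 0.04, 0.18, 0.15 and 0.12, of which only those at 8 h and 16 h had an interval that included 0. These intervals also cover the Poisson error of the observed UMIs alone and are too narrow, so no direction is read from the S1pr2 values. At 200 UMIs and 16 h, the panel's genes ran from -1.53 to 1.05 in barcodes with S1pr2, and Cyp7a1 ranked at 3 of 50. Cyp8b1 at 30 h ranked at 14 of 50. Nr0b2 and S1pr2 UMIs occurred in the same thinned barcode 4, 9, 24, 11 and 8 times, against 5.74, 8.37, 18.4, 10.3 and 10.0 S1pr2 UMIs expected from zone, and each of these 5 intervals included 0.

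**Figure D4:**
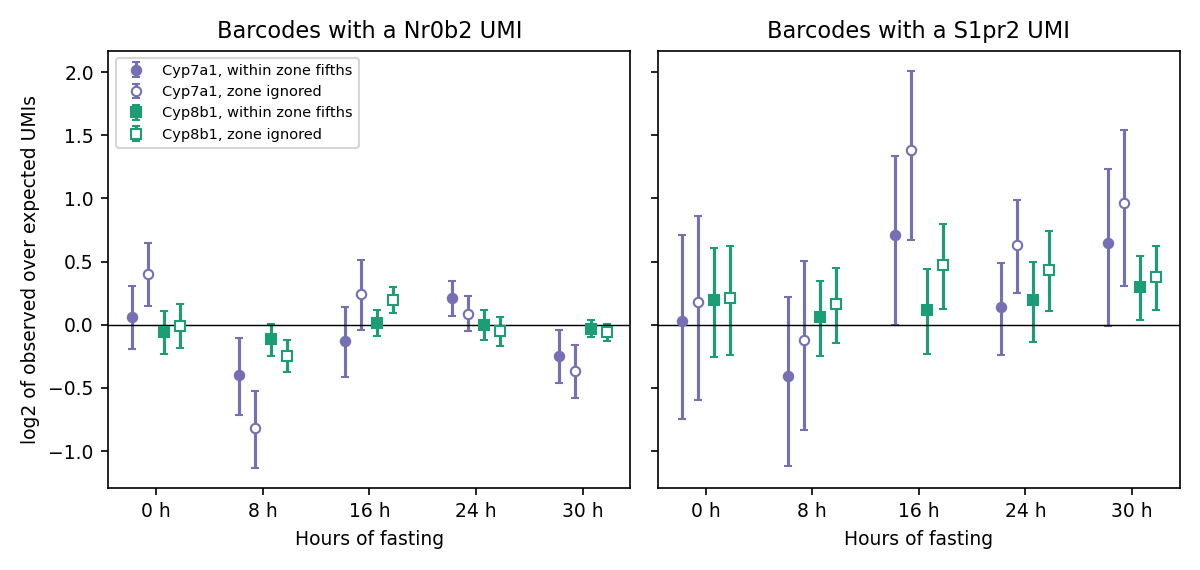
Log2 of observed over expected UMIs of Cyp7a1 (circles) and Cyp8b1 (squares) in barcodes with a UMI of Nr0b2 (left) or S1pr2 (right), in barcodes thinned to 200 UMIs, for each library. Filled symbols take the expectation within zone bins and open symbols ignore zone; bars are 95% Poisson intervals of the observed UMIs. Within zone bins, Cyp7a1 in barcodes with Nr0b2 is at -0.40 (8 h), 0.21 (24 h) and -0.25 (30 h). The bars are too narrow, and no direction is read from these values. In the same barcodes Cyp8b1 lies near 0 in all 5 libraries.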

How the data were processed

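A single matrix of raw UMI counts was deposited, with 64 genes and 47473 barcodes, beside a table that names each barcode's library. The submitters' processing notes name Cell Ranger 6.0.1 and mm10. Libraries were 10x Genomics 3′ v3 with hybrid capture, per the labels' protocols. The annotation and the calling of barcodes are not given in the sources used here.

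All barcodes were used, and no doublet caller was run on so small a panel. UMIs were summed per library or zone bin. CPM intervals are exact Poisson, those of log2 ratios exact conditional binomial, those of differences of 2 ratios normal, and those of shares Clopper-Pearson, all at 95%. Barcodes were ranked by log2((Cyp2e1 + 1)/(Cyp2f2 + 1)) with ties broken at random (seed 1), leaving out 98 with neither gene. Bins came from unthinned counts. No differential test was run, with 1 library per group. Genes were named by rule: both members, Cyp7a1 and Cyp8b1, bile acid genes past 2-fold, and the 3 nearest genes by pattern, of which 1 result is not reported here. Rxra, Fgf15 and the genes farthest in pattern were added after their values were seen. The members, lists and tests were chosen with earlier results of these data known. Gene positions came from GENCODE M21 (GRCm38), and promoters from RefSeq (GRCm38.p6), which matched 2 of 2 members. Steps were tested on simulated data. Python 3.11.15, NumPy 2.4.6, SciPy 1.17.1 and pandas 2.3.3 were used.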

Additional observations from a re-analysis of the deposited data

Results flagged for a closer look

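The change of Nr0b2 from 0 h to 8 h had opposite signs in the 2 outer bins in CPM. Bins were ranked within each library and need not hold the same part of the lobule at 0 h and 8 h. The change was 0.92 on the log2 scale in the periportal bin and -0.44 in the pericentral bin, a difference of -1.37. In CPM neither interval included 0. Without Alb the pericentral value was -0.21 (-0.43 to 0.004), which includes 0, and the periportal one 1.23. In UMIs per barcode both bins were lower at 8 h, by -0.18 and -1.54. The difference itself was -1.44 without Alb and -1.36 per barcode. The difference was not tested, since each time point is a single library. The 8 h library had the fewest UMIs per barcode, with medians of 586 in the periportal and 253 in the pericentral bin. Among barcodes with 300 or more UMIs, ranked anew, the pericentral over periportal log2 ratio of Nr0b2 was -1.03 at 8 h and 0.37 at 0 h.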

How the results depend on the processing

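No paired analysis was possible because each time point is 1 library. Of 138 alternative values, 84 stayed within the counting interval of the reported one (or, for counts of genes, within 1.5 times the reported count). Another 38 moved outside it, and 16 reversed a ratio whose interval excluded 0. The cause was not tested where none is named. In UMIs per barcode, which keep the depth of each library, the 8 h level against 0 h reversed for Nr0b2 (-1.11) and S1pr2 (-1.28). By the same measure Nr0b2 came to 0.52 (16 h), 1.002 (24 h) and 1.17 (30 h), and S1pr2 to -0.72 (16 h) and 0.13 (24 h). Without Alb the level of Nr0b2 was 0.66 (8 h), 1.27 (16 h) and 0.90 (24 h). With median-of-ratios scaling it was 1.31 (16 h) and 0.90 (24 h). The zone ratio of Nr0b2 without Alb reversed to -0.31 (0 h) and -0.46 (16 h) and moved to -1.75 (8 h), -1.14 (24 h) and -1.23 (30 h). Per barcode it was -0.42 (0 h) and -0.22 (16 h), both reversed, then -1.78 (8 h), -0.83 (24 h) and -0.94 (30 h). Without Alb, Cyp2e1 and Cyp2f2, a choice made after seeing the data, it was -0.16 (0 h) and -0.21 (16 h), both reversed, then -1.62 (8 h), -0.79 (24 h) and -0.74 (30 h). In outer bins of 3 it was 0.21 (0 h) and 0.42 (16 h). That of S1pr2 without Alb reversed to -0.20 (0 h), -0.32 (8 h) and -0.33 (30 h) and moved to 0.26 (16 h) and 0.31 (24 h). Per barcode it reversed to -0.31 (0 h), -0.36 (8 h) and -0.045 (30 h) and moved to 0.50 (16 h) and 0.62 (24 h). Without Alb, Cyp2e1 and Cyp2f2 it reversed to -0.057 (0 h) and -0.19 (8 h) and moved to 0.51 (16 h), 0.66 (24 h) and 0.16 (30 h).

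With zone ignored, Cyp7a1 in barcodes with Nr0b2 came to 0.40 (0 h), -0.82 (8 h) and 0.24 (16 h), and Cyp8b1 to -0.25 (8 h) and 0.20 (16 h). In barcodes with S1pr2, Cyp7a1 then came to 1.39 (16 h) and 0.63 (24 h), and Cyp8b1 to 0.47 (16 h). Thinned to 500 UMIs, Cyp7a1 was 0.029 in barcodes with Nr0b2 (24 h) and -0.024 in barcodes with S1pr2 (30 h). Using only barcodes of 300 or more UMIs moved no level or zone ratio of either gene outside its interval, and neither did leaving out barcodes with other-cell UMIs for the levels. Among the outer bins, S1pr2 had 63 or more UMIs and Cyp7a1 29 or more, both least in the periportal bin at 16 h.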
